A study of Mus musculus with 2 samples.

Results

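The cells described are macrophages that carried RNA of Cxcl9, taken from CD45+ immune cells of GL261 tumours. GL261 is a mouse glioma cell line, and it had been injected into the brains of C57BL/6 mice. Droplet-based 3' RNA counts were measured in 2 libraries. The ibudilast library came from mice given ibudilast into the stomach at 20 mg/kg, 5 times a week for 2 weeks, and the PBS library from mice given PBS on that schedule. The treatment label of the PBS library reads untreated, and the number, age and sex of the mice behind each library are not given in the sources used here. Ibudilast is a drug known to block phosphodiesterases and MIF, a macrophage cytokine. Members were barcodes with at least 300 genes, at least 500 UMIs (unique molecules counted) and under 10% mitochondrial UMIs that met every gene limit of a fixed rule. C1qa and C1qb together had to make up at least 0.8% of UMIs, and Cxcl9 had to reach 2 UMIs. Cd3d, Cd3e and Cd3g had to stay under 2 UMIs in sum, P2ry12, Sall1 and Fcrls under 3, Mki67 and Top2a under 3, and Gpnmb under 3, while Arg1 and Mmp12 had to be at 0. The rule kept 644 of 7079 ibudilast barcodes and 1569 of 8155 PBS barcodes that passed the cell filter. They are called Cxcl9 macrophages here.

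CXCL9 is a chemokine that binds CXCR3 on activated T cells and NK cells, and its sister ligand CXCL10 binds the same receptor. Macrophages switch on Cxcl9 when interferon-gamma engages its receptor and the kinases JAK1 and JAK2 become active. The same signal raises guanylate-binding proteins and immunity-related GTPases, which attack vacuoles that hold microbes, and the genes of antigen presentation. In tumours, macrophages that make CXCL9 are known for drawing in T cells, while macrophages that make arginase or SPP1 are known for matrix remodelling and immune suppression.

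The promoters of 5 genes at a higher level in these cells are shown, of which Cxcl9 was used by the rule. They were picked because they hold the letters that interferon and NF-kB factors are known to bind. Each runs from 250 bases before to 50 bases after the gene's start in RefSeq, on build GRCm38.p6, read 5′ to 3′ along the gene. Capitals mark matches on either strand to any of 3 motifs, none of which overlapped in these windows. The GAS element, through which interferon-gamma acts, was TTC and GAA with any 3 bases between, and the core of the ISRE bound by interferon regulatory factors was GAAA and GAAA with any 2 bases between. The NF-kB motif was GGG, any 2 bases, TT, any base and CC. The windows are those of Cxcl9 at chr5:92328030-92328329 on the minus strand, Cxcl10 at chr5:92348840-92349139 on the minus strand, and on the plus strand Gbp2 at chr3:142620413-142620712, Gbp5 at chr3:142496684-142496983 and Serpina3g at chr12:104235897-104236196.
Cxcl9: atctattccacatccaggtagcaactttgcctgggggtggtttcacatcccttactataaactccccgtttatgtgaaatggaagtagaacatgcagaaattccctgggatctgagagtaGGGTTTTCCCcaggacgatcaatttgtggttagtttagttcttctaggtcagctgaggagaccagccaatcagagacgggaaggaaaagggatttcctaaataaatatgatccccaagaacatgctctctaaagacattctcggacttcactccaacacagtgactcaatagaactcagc
Cxcl10: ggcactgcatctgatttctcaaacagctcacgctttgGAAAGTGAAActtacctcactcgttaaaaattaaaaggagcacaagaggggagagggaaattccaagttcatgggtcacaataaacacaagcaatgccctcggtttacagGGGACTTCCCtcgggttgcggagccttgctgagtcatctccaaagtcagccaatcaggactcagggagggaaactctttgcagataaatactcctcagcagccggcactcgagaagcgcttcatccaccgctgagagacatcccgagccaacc
Gbp2: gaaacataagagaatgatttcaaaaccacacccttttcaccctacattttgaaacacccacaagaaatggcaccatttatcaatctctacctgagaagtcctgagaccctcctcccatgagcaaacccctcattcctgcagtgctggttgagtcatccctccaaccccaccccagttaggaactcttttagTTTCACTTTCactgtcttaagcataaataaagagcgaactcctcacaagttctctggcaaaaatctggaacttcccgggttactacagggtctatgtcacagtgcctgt
Gbp5: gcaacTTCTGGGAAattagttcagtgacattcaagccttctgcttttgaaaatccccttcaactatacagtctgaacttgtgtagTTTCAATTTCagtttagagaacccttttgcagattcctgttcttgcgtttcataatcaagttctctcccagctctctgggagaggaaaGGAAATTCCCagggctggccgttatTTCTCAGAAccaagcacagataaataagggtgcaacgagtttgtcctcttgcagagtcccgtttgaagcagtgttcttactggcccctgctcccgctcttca
Serpina3g: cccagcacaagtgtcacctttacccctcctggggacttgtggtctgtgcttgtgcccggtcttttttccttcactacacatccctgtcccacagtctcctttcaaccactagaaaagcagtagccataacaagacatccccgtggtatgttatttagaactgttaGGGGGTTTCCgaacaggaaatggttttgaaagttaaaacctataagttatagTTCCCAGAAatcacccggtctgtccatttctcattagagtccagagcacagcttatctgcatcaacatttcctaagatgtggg
The Cxcl9 window held an NF-kB match 130 bases before the start. Cxcl10 held an ISRE core 213 bases and an NF-kB match 103 bases before the start. Gbp2 held an ISRE core at 59 bases, and Gbp5 held GAS matches at 245 and 52 bases, an ISRE core at 165 bases and an NF-kB match at 77 bases. Serpina3g, a serine protease inhibitor of immune cells, held a GAS match at 33 bases and an NF-kB match at 85 bases. Of all 32841 promoters of the table, 8.30% held a GAS match, 3.44% an ISRE core and 4.80% an NF-kB match. Of 11 promoters found for the 16 listed guanylate-binding proteins and immunity GTPases, 10 held an ISRE core, 6 a GAS match and 1 an NF-kB match. Of 19 promoters found for the 24 listed type I interferon-stimulated genes, 12 held an ISRE core, 2 a GAS match and 1 an NF-kB match. The 12 genes furthest above Cxcl9-zero macrophages had 9 promoters, of which 5 held an ISRE core, 3 a GAS match and 6 an NF-kB match. That of Ccl8 held none. The 9 genes furthest below had 7 promoters, with 1 match of each kind. A match is a description of letters, not a binding site, and these windows do not cover distal elements.

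Cxcl9 macrophages were a smaller share of the ibudilast library. They made up 9.10% of kept ibudilast barcodes (exact binomial 95% interval 8.44 to 9.79) and 19.2% of kept PBS barcodes (18.4 to 20.1), a ratio of 0.473 (0.431 to 0.519). Most of that gap lay in the macrophages as a whole. Barcodes that met the C1q, Cd3, microglia and cycling limits, called C1q-gated macrophages, were 19.0% of the ibudilast library and 36.0% of the PBS library (ratio 0.529, interval 0.496 to 0.565). Among these, Cxcl9 macrophages were 47.8% in the ibudilast library (45.1 to 50.5) and 53.5% in the PBS library (51.6 to 55.3), a ratio of 0.894 (0.814 to 0.980). Every interval in the text is at 95%, covers counting error alone and leaves out variation among cells and mice. With 1 library per group there is no replicate check and no test, so every ratio compares these libraries.

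The Cxcl9 limit is a fixed number of UMIs, so the share also moves with depth. Cxcl9 macrophages had a median of 11276.5 UMIs in the ibudilast library and 14327 in the PBS library. With C1q-gated macrophages thinned to 3000 UMIs each, and 124 ibudilast and 97 PBS cells left out as too shallow, the shares were 38.2% in the ibudilast library and 42.8% in the PBS library (ratio 0.894, 0.802 to 0.995). In cells of 500 to 5000 UMIs members were 29.0% in the ibudilast library and 38.1% in the PBS library. From 5000 to 10000 UMIs the shares were 45.9% in the ibudilast library and 46.5% in the PBS library. From 15000 to 20000 UMIs they were 63.7% in the ibudilast library and 58.9% in the PBS library. The order of the libraries therefore differed between depth classes, and the counting interval of the ratio held 1 in all 5 classes. By the Cxcl9 limit alone, without the Arg1, Mmp12 and Gpnmb limits, the share was lower in the ibudilast library in all 5 classes, with ratios of 0.780 to 0.975 from class to class and intervals that also held 1. Cells that met all other limits with no Cxcl9 UMI, called Cxcl9-zero macrophages, were 24.2% of C1q-gated macrophages in the ibudilast library and 11.9% in the PBS library (ratio 2.03, 1.74 to 2.37). After thinning to 3000 UMIs, a setting added after the data were seen, these shares were 38.2% in the ibudilast library and 29.95% in the PBS library, and the ratio was 1.28 (1.14 to 1.43). The Arg1 and Mmp12 limit removed 93 ibudilast and 479 PBS cells that carried at least 2 Cxcl9 UMIs, and 35 and 231 of these had a single Arg1 or Mmp12 UMI. After the same thinning, 6.78% of ibudilast and 11.2% of PBS C1q-gated macrophages had an Arg1 or Mmp12 UMI.

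Within members, which the rule chose by Cxcl9 itself, the summed Cxcl9 level was nearly the same in both libraries. The summed level was 1907 UMIs per 1000000 (CPM) in the ibudilast library (exact Poisson interval 1877 to 1937) and 1896 CPM in the PBS library (1878 to 1914), a ratio of 1.01 (0.987 to 1.02). The level per cell was less alike, with a median of 1226 CPM in the ibudilast library and 1036 CPM in the PBS library. A cell held a median of 12 Cxcl9 UMIs, with a highest value of 282, in the ibudilast library. In the PBS library the median was 13 UMIs and the highest value 479. The RNA was unevenly spread: the upper 10% of members held 42.1% of the members' Cxcl9 UMIs in the ibudilast library and 42.4% in the PBS library. Just inside the limit, 82 ibudilast and 187 PBS members had exactly 2 UMIs, at median levels of 229 and 168 CPM. Just outside it, 138 ibudilast and 240 PBS cells had exactly 1 UMI, at medians of 126 and 95.2 CPM.

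Cxcl9 RNA was not confined to these cells. Members held 22.6% of the Cxcl9 UMIs of kept ibudilast barcodes and 35.3% of those of kept PBS barcodes. Monocytes with at least 10 Ly6c2 UMIs, which carried little C1q RNA, had 1191 CPM of Cxcl9 in the ibudilast library and 1049 CPM in the PBS library. Macrophages with at least 5 Arg1 or Mmp12 UMIs had 974 CPM in the ibudilast library and 998 CPM in the PBS library, and microglia had 884 and 828 CPM. T cells, which are not known as a Cxcl9 source, had 181 CPM in the ibudilast library and 252 CPM in the PBS library. At least 2 Cxcl9 UMIs were found in 12.9% of ibudilast T cells (median depth 7129 UMIs) and 17.5% of PBS T cells (7484 UMIs). The Cxcl9 level of members with 2 UMIs is therefore close to that of T cells, and members with at least 10 UMIs, 56.1% of ibudilast and 56.9% of PBS members, were also looked at alone.

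**Figure D1:**
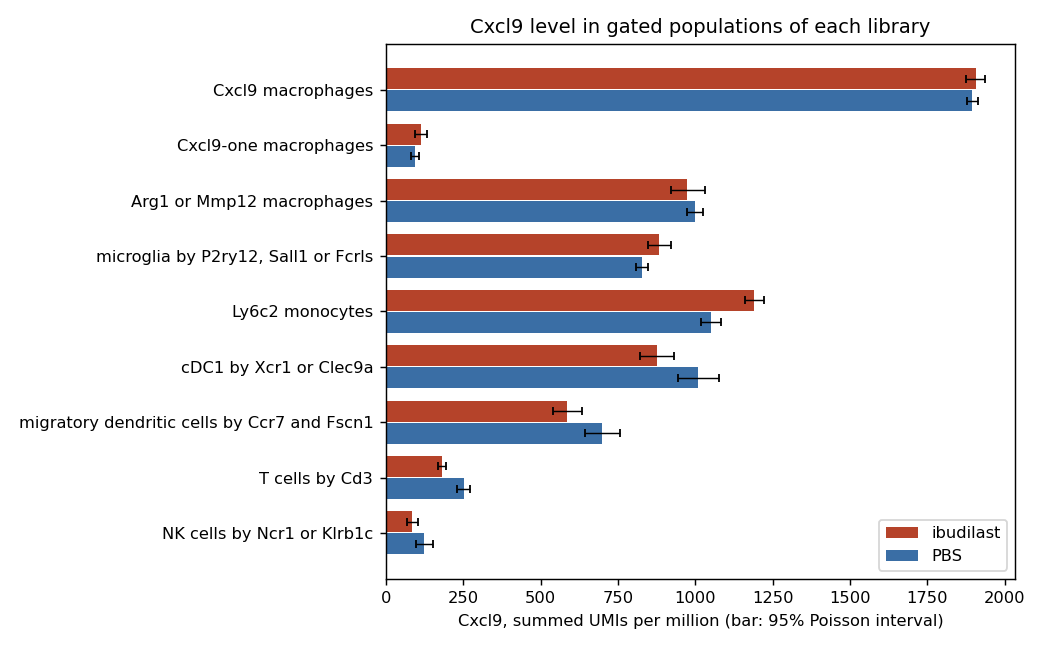
Cxcl9 in CPM (horizontal axis, exact Poisson intervals) in 9 populations chosen by marker UMIs, with the ibudilast library above the PBS library in each. Cxcl9 macrophages lead at 1907 and 1896 CPM because the rule asks for Cxcl9, and monocytes, dendritic cells, microglia and Arg1 or Mmp12 macrophages carry it too.

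The cells were checked against macrophage and other markers. 10 macrophage genes that the rule did not use, among them Csf1r, Mertk and Adgre1, lay within 1.5-fold of Cxcl9-zero macrophages in both libraries, with a median log2 ratio of −0.10 in the ibudilast library and −0.08 in the PBS library. Microglia genes that the rule did not use were partly present. Tmem119, a microglial membrane protein, was at 117 CPM in ibudilast and 172 CPM in PBS members. It was at 227 and 267 CPM in gated microglia, and at 11.5 and 11.2 CPM in T cells. Sparc, another microglia marker, was at 9.69 CPM in ibudilast and 5.07 CPM in PBS members, against 251 and 213 CPM in gated microglia. All 6 microglia markers that the rule did not use were lower in members than in gated microglia of both libraries, with median log2 ratios of −2.33 and −2.11. 88 ibudilast members (13.7%) and 90 PBS members (5.74%) held at least 2 UMIs of T or NK cell genes and are called mixed barcodes. The libraries shared 19 barcodes, none of them a member in both.

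The label of interferon-primed macrophages rests on Cxcl9, Ccl12, Ch25h, Fcgr4 and Calhm6, of which Cxcl9 was used by the rule. Ccl12, a chemokine for monocytes, did not separate members from Cxcl9-zero macrophages: it was at 703 CPM in members and 749 CPM in Cxcl9-zero cells of the ibudilast library, and at 985 and 803 CPM in the PBS library. Ch25h, which makes the antiviral oxysterol 25-hydroxycholesterol, was at 83.3 CPM in members against 46.1 CPM in Cxcl9-zero cells of the ibudilast library, and at 102 against 62.1 CPM in the PBS library. The Fc receptor gene Fcgr4 was at 553 against 470 CPM in the ibudilast library and at 541 against 437 CPM in the PBS library. Calhm6, an interferon-induced ion channel of macrophages, was at 255 against 171 CPM in the ibudilast library and at 196 against 123 CPM in the PBS library. So 1 of 4 markers passed 1.5-fold over Cxcl9-zero cells in the ibudilast library (Ch25h) and 2 of 4 in the PBS library (Ch25h and Calhm6). Against Arg1 or Mmp12 macrophages, 3 of 4 passed in each library. The name Cxcl9 macrophages is kept for this reason.

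Members were then set beside Cxcl9-zero macrophages of the same library. Genes with at least 50 UMIs in the pair were compared, and a gene is called higher above 1.5-fold and lower below its inverse. The rule used these cells, so the values describe them and nothing is read from the counts. In the ibudilast library 3.49% of 8857 genes were higher and 4.08% lower, and in the PBS library 4.16% of 10151 were higher and 3.16% lower. The median log2 ratio over all genes was −0.05 in the ibudilast library and −0.03 in the PBS library. Of 8838 genes compared in both libraries, 65 were higher in both, 54 lower in both and 30 had opposite calls. Among the same genes, 302 were higher in the ibudilast library and 226 in the PBS library, while 359 and 176 were lower. Cxcl9-zero cells were shallower, with median depths of 6526 UMIs in the ibudilast library and 9759 in the PBS library.

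Part of the guanylate-binding proteins and immunity GTPases were higher in members: 7 of 16 in the ibudilast library and 10 of 16 in the PBS library, with none lower and median log2 ratios of 0.31 and 0.68. Gbp2 was at 203 CPM in members against 93.5 CPM in Cxcl9-zero cells of the ibudilast library (ratio 2.17, interval 1.89 to 2.50). In the PBS library it was at 186 against 73.8 CPM (2.52, 2.23 to 2.86). Gbp5, which helps to assemble the inflammasome, was at 44.7 against 17.4 CPM in the ibudilast library and at 43.9 against 17.97 CPM in the PBS library. Both libraries showed a difference of more than 2-fold for these genes. Gbp2b had ratios of 2.88 in the ibudilast library and 2.50 in the PBS library. Iigp1, a GTPase that disrupts parasite vacuoles, had ratios of 2.07 and 2.34. Members of the family did not all differ: Gbp6 had ratios of 0.966 and 1.11, and Gbp9 of 0.939 and 1.32. Reads of near-identical copies, such as the Gbp genes, Serpina3f with Serpina3g, Tgtp1 with Tgtp2, H2-Q6 with H2-Q7 and the Ly6 genes, may have been split between them, so such values are uncertain.

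Among chemokines, Cxcl10 was at 772 CPM in members against 426 CPM in Cxcl9-zero cells of the ibudilast library (ratio 1.81, 1.70 to 1.94). In the PBS library it was at 688 against 322 CPM (2.14, 2.02 to 2.27). Ccl8, a chemokine for monocytes and T cells, was at 157 against 35.6 CPM in the ibudilast library (4.40, 3.55 to 5.53) and at 80.9 against 31.6 CPM in the PBS library (2.56). With each PBS cell weighted alike, the Ccl8 ratio was 1.06. Ccl2, which draws monocytes through CCR2, was close in both groups, at 301 against 336 CPM in the ibudilast library and 458 against 467 CPM in the PBS library. Of the chemokine list, 3 of 14 genes were higher and none lower in the ibudilast library, and 3 of 15 were higher and 1 lower in the PBS library.

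Several genes that stood furthest apart by rank were on neither the GTPase list nor the list of type I interferon-stimulated genes. Whether interferon raised them here was not tested. Dnase1l3, a nuclease that degrades DNA of dead cells, was at 253 against 60.7 CPM in the ibudilast library (ratio 4.17, 3.53 to 4.96) and at 269 against 86.3 CPM in the PBS library (3.11, 2.78 to 3.49). Serpina3g was at 162 against 50.6 CPM in the ibudilast library (3.21) and at 199 against 78.4 CPM in the PBS library (2.54). Vcam1, an adhesion molecule for integrins of T cells, was at 78.2 against 27.1 CPM in the ibudilast library and at 116 against 53.9 CPM in the PBS library. All 3 were over 2-fold higher in members of both libraries. Procr, the protein C receptor, had ratios of 4.13 in the ibudilast library and 2.63 in the PBS library, and Serpina3f of 4.21 and 3.05. Slamf8, a receptor that dampens the oxidase of phagocytes, was at 121 against 68.4 CPM in the ibudilast library and at 120.1 against 62.6 CPM in the PBS library.

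**Figure D2:**
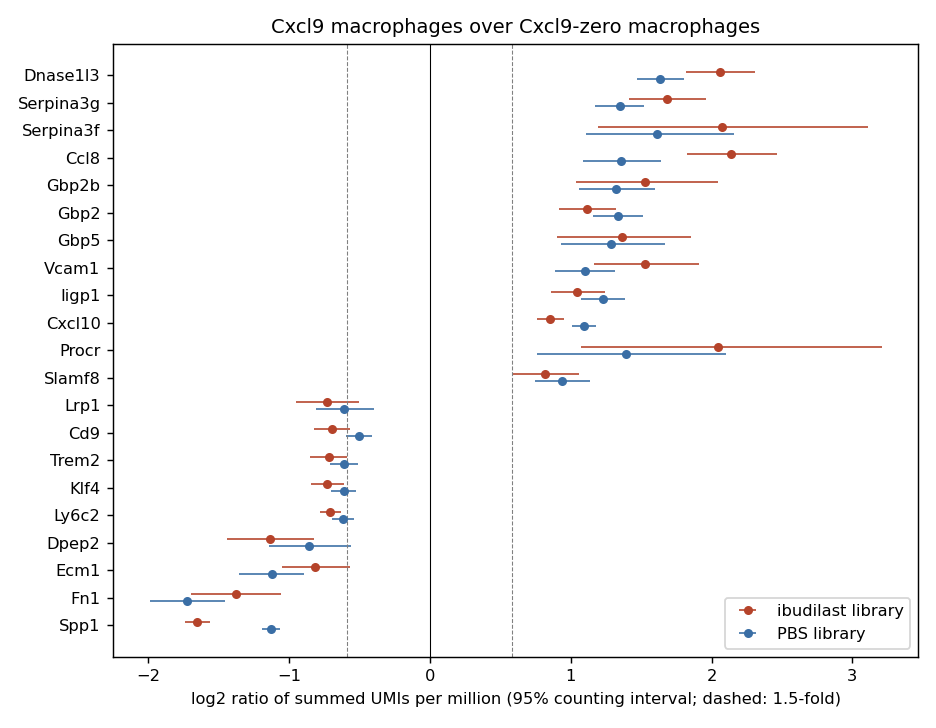
Log2 ratio of summed CPM in Cxcl9 macrophages over Cxcl9-zero macrophages (horizontal axis) for the 12 genes furthest above and the 9 furthest below, by library, with counting intervals and the 1.5-fold limits dashed. Dnase1l3 (ratios 4.17 and 3.11), Serpina3g and the Gbp genes lie on the higher side in both libraries, and Spp1 and Fn1 on the lower side.

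Few genes of the interferon-gamma pathway itself passed 1.5-fold. In the ibudilast library 0 of 18 were higher (median log2 ratio −0.02), and in the PBS library 3 of 18 (0.13). The receptor genes Ifngr1 and Ifngr2 lay between 0.856 and 0.983 times the Cxcl9-zero level. Socs1, the feedback inhibitor of JAK signalling, had a ratio of 1.245 in the ibudilast library and 1.97 in the PBS library, and Nlrc5, which switches on MHC class I genes, of 0.868 and 1.62. Type I interferon-stimulated genes were near the background: 0 of 23 higher in the ibudilast library (median log2 ratio 0.0048) and 1 of 23, Ifi205, in the PBS library (0.23). The ubiquitin-like Isg15 had ratios of 1.14 and 1.38.

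Most genes of antigen presentation did not pass 1.5-fold. The MHC class II list had a median log2 ratio of 0.30 in the ibudilast library and 0.23 in the PBS library, with 2 of 10 and 1 of 10 genes past 1.5-fold, all of them genes of low level (H2-Oa and H2-Ob, and H2-DMb2). With Cxcl9-zero cells weighted to the depth of members these medians were 0.12 and 0.16, and with each cell weighted alike they were 0.42 and 0.37. H2-Aa, a chain of the classical class II molecule, was at 10331 against 8446 CPM in the ibudilast library (ratio 1.22) and at 11215 against 9381 CPM in the PBS library (1.20). The MHC class I list had 0 of 18 genes past 1.5-fold in either library and medians of 0.11 and 0.21. Cd40, the receptor through which T cells license macrophages, was at 109 against 73.3 CPM in the ibudilast library and at 95.7 against 53.4 CPM in the PBS library. Cd274, which encodes the checkpoint ligand PD-L1, had ratios of 1.45 and 1.53. Acod1, which makes itaconate, had ratios of 1.52 and 1.89, and C3, the central complement protein, of 1.62 and 2.14.

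A minority of tissue-repair genes were lower in members. Of 20 compared, 6 were lower and none higher in the ibudilast library (median log2 ratio −0.31), and 4 were lower and 2 higher in the PBS library (−0.22). With Cxcl9-zero cells weighted to the depth of members the medians were −0.21 and −0.12, and with each cell weighted alike they were −0.46 and −0.32. Spp1, the matrix protein osteopontin, was at 255 CPM in members against 801 CPM in Cxcl9-zero cells of the ibudilast library (ratio 0.319) and at 303 against 663 CPM in the PBS library (0.458). Fn1, fibronectin, was at 23.4 against 60.7 CPM in the ibudilast library and at 14.6 against 48.2 CPM in the PBS library. Trem2, a lipid receptor of macrophages and microglia, was at 176 against 289.8 CPM in the ibudilast library and at 181 against 277 CPM in the PBS library. Mgl2, a galactose-binding lectin, went the other way in the libraries, with ratios of 0.854 in the ibudilast library and 2.04 in the PBS library.

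Of 11 monocyte genes 2 were lower in each library. Ly6c2, the Ly6C antigen of inflammatory monocytes, was at 587 against 957 CPM in the ibudilast library (0.614) and at 291 against 445 CPM in the PBS library (0.654). The transcription factor Klf4 had ratios of 0.605 in the ibudilast library and 0.655 in the PBS library. With Cxcl9-zero cells weighted to the depth of members, the ratios of Ly6c2 were 0.856 and 0.859 and those of Klf4 0.781 and 0.773, which ends both calls. Median-of-ratios scaling also put the PBS ratios of Ly6c2 (0.668), Klf4 (0.669) and Trem2 (0.669) just outside the limit. Dpep2 (0.686 and 0.796) and Lrp1 (0.728 and 0.729) also lost their calls with Cxcl9-zero cells weighted by depth. With those weights Spp1, Fn1 and Ecm1 stayed lower and Gbp2, Cxcl10 and Serpina3g higher in both libraries. NK cell genes also moved with the comparison: 4 of 11 were higher in ibudilast members (sums of 755 CPM in members and 555 CPM in Cxcl9-zero cells) and 9 of 10 in PBS members (218 and 87.9 CPM). Their part in the differences was not tested. Without mixed barcodes the median log2 ratio of the GTPase list was 0.41 in the ibudilast library and 0.68 in the PBS library.

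Because the members' Cxcl9 RNA spanned a wide range, 5 classes of Cxcl9 level were set beside each other, a comparison added after the data were seen. In members of at least 4000 Cxcl9 CPM (103 ibudilast and 239 PBS cells) set against members under 500 CPM (174 ibudilast and 511 PBS cells), 4.59% of 5989 ibudilast genes were higher and 6.45% lower. In the PBS library 2.22% of 8778 genes were higher and 7.37% lower. The cells of the highest class had somewhat fewer UMIs, with medians of 9807 against 12779.5 in the ibudilast library and 13262 against 14761 in the PBS library. The genes of this comparison were chosen after their values were seen, and Cxcl9 counts of the same cells made the classes.

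Guanylate-binding proteins and GTPases followed Cxcl9 most widely: 12 of 14 were higher in the ibudilast library and 13 of 16 in the PBS library, with median log2 ratios of 1.02 and 0.84 beside −0.02 and −0.08 over all genes. Gbp2 was at 514 CPM in the highest class against 77.8 CPM in the lowest class of the ibudilast library (ratio 6.60), and at 426 against 103 CPM in the PBS library (4.13). Over the 5 classes from low to high it was at 77.8, 121, 222, 238 and 514 CPM in the ibudilast library and at 103, 140.1, 157, 226 and 426 CPM in the PBS library. Each class was above the class before it in both libraries. Cxcl10 was at 1687 against 436 CPM in the ibudilast library (3.87) and at 1323 against 446 CPM in the PBS library (2.97). Serpina3g was at 352 against 95.6 CPM in the ibudilast library and at 498 against 99.1 CPM in the PBS library. Cd40 was at 233 against 67.9 CPM in the ibudilast library and at 204 against 66.2 CPM in the PBS library. Acod1, Batf2 and Slamf8, which were 1.48- to 1.92-fold apart between members and Cxcl9-zero cells, were 2.49- to 3.85-fold apart between these classes.

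Most pathway genes did not pass the limit: 5 of 18 interferon-gamma signalling genes were higher in the ibudilast library (median log2 ratio 0.31), and 3 were higher and 1 lower of 18 in the PBS library (0.17). Socs1 had ratios of 2.41 in the ibudilast library and 1.88 in the PBS library. Irf1, an early interferon-gamma target that drives further genes, had ratios of 2.19 and 1.67. Cd274 was at 148 against 62.9 CPM in the ibudilast library and at 152 against 85.2 CPM in the PBS library, and the marker Calhm6 at 459.9 against 188 CPM and 391 against 142 CPM. Type I interferon-stimulated genes were higher in 9 of 23 in the ibudilast library (median log2 ratio 0.44) and in 2 of 23 in the PBS library (0.18). MHC class II genes did not follow: H2-Aa had ratios of 1.02 and 1.09, and 0 of 9 and 0 of 10 genes of the list were higher. Ly6c2 was at 446 against 663 CPM in the ibudilast library (0.672, not past the limit) and at 215 against 326 CPM in the PBS library (0.658). Ltc4s, an enzyme of leukotriene synthesis, was lower, with ratios of 0.207 in the ibudilast library and 0.433 in the PBS library. NK cell genes were lower in 7 of 8 in the PBS library, while 2 of 9 were higher and 2 lower in the ibudilast library. Their part in these values was not tested.

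**Figure D3:**
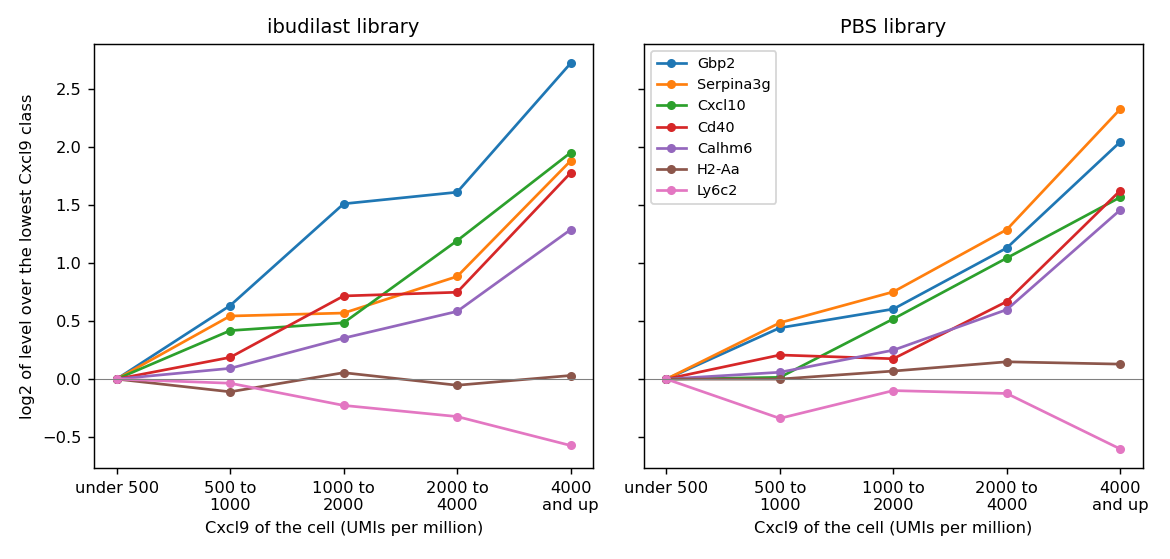
Log2 of the level of 7 genes over their level in the lowest of 5 classes of Cxcl9 level (horizontal axis, CPM, low to high), ibudilast members on the left and PBS members on the right. Gbp2 ends 6.60- and 4.13-fold above the lowest class, H2-Aa stays near 1 at 1.02 and 1.09, and Ly6c2 ends at 0.672 and 0.658.

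Members were next set against macrophages with at least 5 UMIs of Arg1 or Mmp12, of any Cxcl9 level. These were 95 cells in the ibudilast library and 328 in the PBS library. Their gate asked for only a few C1q UMIs, not for 0.8% of UMIs, and set no Gpnmb limit. The 12 macrophage markers, C1qa and C1qb among them, summed to 45749 CPM in members against 38450 CPM in the ibudilast library. In the PBS library the sums were 47084 against 39322 CPM. The part of these gate differences was not tested. Arginase depletes the arginine that T cells need, and Mmp12 cuts elastin. Both genes were used by the rule. In the ibudilast library 6.85% of 8625 genes were higher in members and 10.2% lower, and in the PBS library 4.35% of 10277 were higher and 6.40% lower. All 16 glycolysis and hypoxia genes compared in the ibudilast library and all 17 in the PBS library were lower in members, with median log2 ratios of −1.10 and −1.07 beside −0.05 and 0.01 over all genes. Their summed level was 3723 CPM in members against 7827 CPM in Arg1 or Mmp12 macrophages of the ibudilast library, and 4115 against 8299 CPM in the PBS library.

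Pgk1, an enzyme of glycolysis, was at 199 against 601 CPM in the ibudilast library and at 226 against 602 CPM in the PBS library. Vegfa, the growth factor of blood vessels, was at 13.1 against 140.3 CPM in the ibudilast library (0.0930) and at 14.1 against 97.9 CPM in the PBS library (0.144). The hypoxia-induced Bnip3 had ratios of 0.196 and 0.221, and the glucose transporter gene Slc2a1 of 0.296 and 0.272. Mif, the cytokine that ibudilast inhibits, was at 505 CPM in members against 1113 CPM in the ibudilast library and at 553 against 1178 CPM in the PBS library. Tissue-repair genes were lower in 15 of 20 in the ibudilast library and 14 of 20 in the PBS library. Lgals3, the lectin galectin-3, was at 1747 against 4343 CPM in the ibudilast library and at 1643 against 3333 CPM in the PBS library, and Fabp5, a fatty acid carrier, had ratios of 0.238 and 0.235.

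Interferon genes separated these groups less. Of 16 GTPase genes, 3 were higher in ibudilast members and 1 in PBS members. Ccl12 had ratios of 1.94 in the ibudilast library and 1.70 in the PBS library, Calhm6 of 2.06 and 2.44, and Ch25h of 1.92 and 1.76. Cd274 had ratios of 0.668 in the ibudilast library, not past the limit, and 0.632 in the PBS library. Nos2, which makes nitric oxide, was lower in members of both libraries, at 2.73 against 48.9 CPM in the ibudilast library and at 2.56 against 27.9 CPM in the PBS library.

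**Figure D4:**
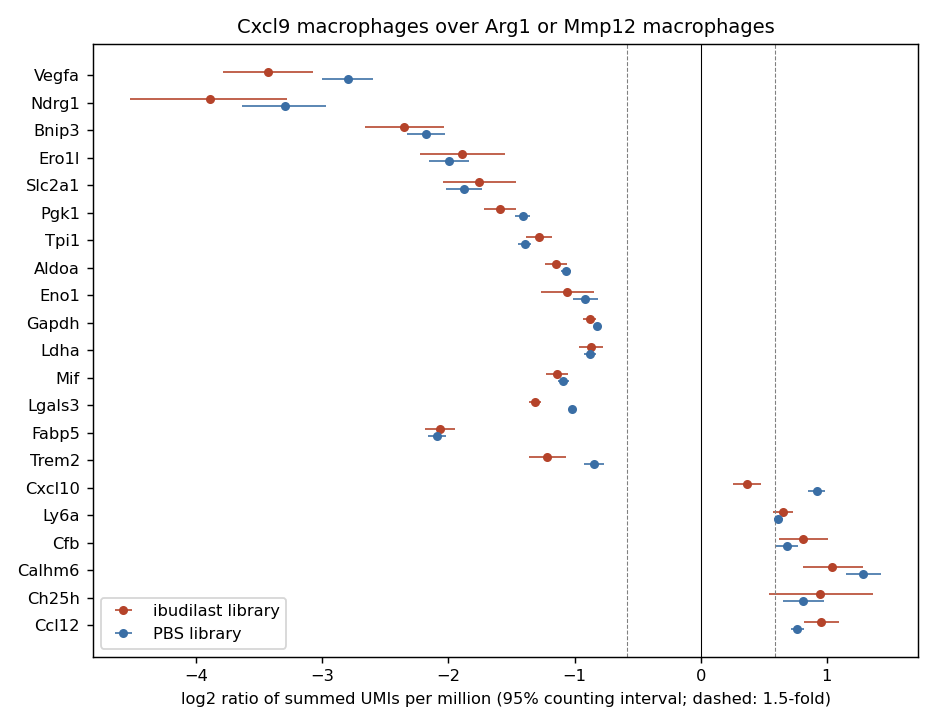
Log2 ratio of summed CPM in Cxcl9 macrophages over Arg1 or Mmp12 macrophages (horizontal axis) for 21 listed genes by library, with counting intervals and the 1.5-fold limits dashed. Vegfa (0.0930 and 0.144), Ndrg1, Bnip3 and Pgk1 lie well below 1 in both libraries, and Ccl12 and Calhm6 above it.

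Against gated microglia (185 ibudilast and 417 PBS cells), members carried more MHC class II RNA, with a summed level of 58202 CPM against 33391 CPM in the ibudilast library and 63505 against 35021 CPM in the PBS library. H2-Aa had ratios of 2.02 and 2.03, and Ccr2, the chemokine receptor of monocytes, of 1.98 and 2.88. Trem2 was at 176 CPM in members against 951 CPM in microglia of the ibudilast library, and at 181 against 999 CPM in the PBS library. Gbp2 was close, with ratios of 1.13 and 1.01. Of all genes, 6.13% were higher and 8.07% lower than in microglia in the ibudilast library, and 5.59% higher and 9.65% lower in the PBS library.

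Ibudilast members were then compared with PBS members, a contrast that the rule did not use. Of 10380 genes, 463 (4.46%) were above 1.5-fold and 237 (2.28%) below its inverse, with a median log2 ratio of 0.01. The 12 highest genes by rank included Gzma, Nkg7, Apod, Ifitm1, Gzmb, Il2rb, Klrd1, Ctsw, Ctla2a, Gimap4 and Ms4a4b. Each of the 12 was at a higher level in another gated population of both libraries. Gzma, a granzyme of killer cells, was at 280.3 CPM in ibudilast and 52.1 CPM in PBS members (ratio 5.38), and at 9421 and 3244 CPM in NK cells. Apod, a lipid carrier, was at 20.4 CPM in ibudilast and 4.09 CPM in PBS members (ratio 4.98), and at 12788 and 3592 CPM in oligodendrocyte barcodes. Mixed barcodes were defined in part by Gzma, so leaving them out removes Gzma UMIs by construction. Without them the Gzma ratio was 1.91 and that of Ctla2a, a protease inhibitor of lymphocytes, 1.35 in place of 3.104.

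RNA of NK cells, T cells, red cells and oligodendrocytes was at a higher level in ibudilast members. The summed level of 11 NK cell genes was 755 CPM in ibudilast and 218 CPM in PBS members, and 10 of 11 were higher. Of the T cell genes that the rule did not use 8 of 8 were higher. All 11 T cell markers, with the Cd3 genes that the rule limits, summed to 87.1 CPM in ibudilast and 36.1 CPM in PBS members. Genes of red cells stood at 64.2 and 7.29 CPM, and genes of oligodendrocytes at 176 and 117 CPM. Other marker lists went the other way: cDC2 markers, Mgl2 among them, summed to 63.7 CPM in ibudilast and 159 CPM in PBS members, cDC1 markers to 145 and 169.9 CPM, and the 9 microglia markers to 884 and 1082 CPM. No defining marker of NK or T cells was at 0 in either library. The part of this RNA in the other differences was not tested. Without mixed barcodes 371 genes were higher and 266 lower.

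Among 90 genes that passed the ranking rule on the higher side, 8 were at no more than 2 times the members' level in every gated lymphocyte, dendritic cell, monocyte, neutrophil and oligodendrocyte population, a list chosen after the values were seen. Ccl8 was at 157 CPM in ibudilast and 80.9 CPM in PBS members (ratio 1.94, 1.80 to 2.08), while in Cxcl9-zero cells the ratio was 1.13. The order of the libraries in the share of cells with Ccl8 changed with depth. A Ccl8 UMI was found in 20.0% of ibudilast and 21.4% of PBS members, which differed in median depth. With members thinned to 3000 UMIs each, the shares were 10.42% in the ibudilast library and 9.55% in the PBS library. Ecm1, an extracellular matrix protein, was at 50.9 CPM in ibudilast and 26.1 CPM in PBS members (1.95). Ms4a7, a membrane protein of macrophages, was at 1216 and 889 CPM (1.37), with a ratio of 1.36 in Cxcl9-zero cells. Nr1h3, the oxysterol receptor LXR-alpha, had a ratio of 1.51, and Syngr1, Rsrp1, Ms4a14 and Rbm3 had ratios of 1.72, 1.61, 1.52 and 1.43. Like Ecm1, Rsrp1 and Rbm3 were at a higher level in another gated population of both libraries, and Syngr1 in that of the PBS library.

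Of the 12 lowest genes by rank in ibudilast members, Mgl2 was at 36.3 CPM in ibudilast and 131 CPM in PBS members (ratio 0.278, 0.246 to 0.313). A Mgl2 UMI was found in 14.6% of ibudilast and 42.3% of PBS members, against 2.28% and 4.56% of T cells. In Cxcl9-zero cells the Mgl2 ratio was 0.664, and in Arg1 or Mmp12 macrophages Mgl2 was at 104 CPM in the ibudilast library and 259 CPM in the PBS library. Lpl, lipoprotein lipase, was at 59.1 CPM in ibudilast and 141 CPM in PBS members (0.418), with 0.395 in Cxcl9-zero cells. The collagenase gene Mmp13 was at 26.5 and 64.8 CPM (0.408), and the cytokine gene Il1a at 16.7 and 39.1 CPM (0.426). Ptgs1, the constitutive cyclooxygenase, was at 53.3 and 103 CPM (0.519), and the aminopeptidase gene Lap3 at 114 and 215 CPM (0.529). Plxdc2, Socs2, Tns1, Psd3, Fads2 and Hs3st3b1 had ratios between 0.341 and 0.427. Socs2, Fads2, Lap3 and Hs3st3b1 were at a higher level in another gated population of both libraries. Socs2 was at 839 CPM in migratory dendritic cells of the ibudilast library and 602 CPM in those of the PBS library. For Plxdc2, Il1a, Tns1 and Psd3 this held in 1 library. Mgl2, Lpl, Mmp13 and Ptgs1 were not higher in any gated lymphocyte, dendritic cell, monocyte, neutrophil or oligodendrocyte population. Mrc1, the mannose receptor, was at 10.9 and 18.9 CPM (0.578). In total 76 genes with a UMI in at least 10% of PBS members had an interval wholly under 0.8.

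**Figure D5:**
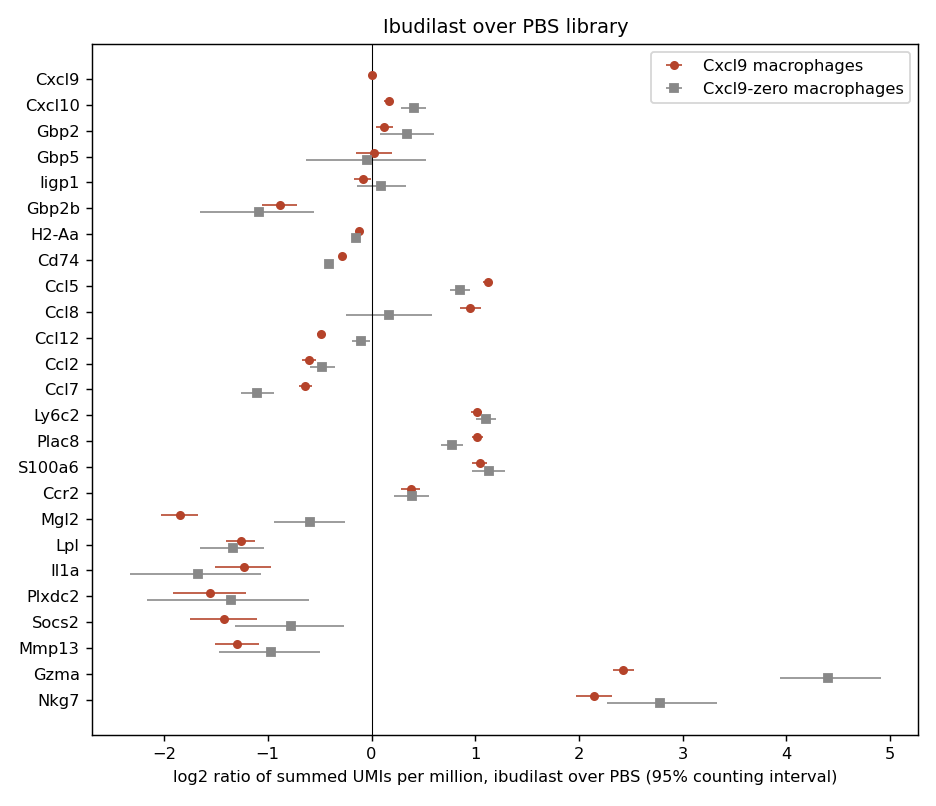
Log2 ratio of summed CPM in the ibudilast over the PBS library (horizontal axis) for 25 genes, in Cxcl9 macrophages (circles) and in Cxcl9-zero macrophages (squares), with counting intervals and a line at a ratio of 1. Gzma (5.38 in members) and Nkg7 lie on the higher side in both populations, Ly6c2 is 2.02-fold higher, and Mgl2 (0.278) and Lpl (0.418) lie on the lower side.

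Of 11 monocyte genes 5 were higher in ibudilast members, with none lower and a median log2 ratio of 0.58. Ly6c2 was at 587 CPM in ibudilast and 291 CPM in PBS members (ratio 2.02, 1.94 to 2.09). Plac8 was at 583 and 288 CPM (2.03) and S100a6, a calcium-binding protein, at 300.2 and 146 CPM (2.06). Ly6i had a ratio of 2.14. Ccr2 was at 181 and 139 CPM (1.30). Cxcl9-zero cells showed the same direction, with 6 of 10 higher and a median of 0.70, beside 4.03% of 7658 genes higher and 2.83% lower there. Ly6c2 was at 1153 CPM in T cells of the ibudilast library and 1104 CPM in those of the PBS library. It was at 4582 and 4210 CPM in monocytes, whose gate asked for at least 10 Ly6c2 UMIs.

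Chemokine genes went both ways. Ccl5 was at 891 CPM in ibudilast and 410.3 CPM in PBS members (ratio 2.17), and NK cells carried it at 8993 and 2057 CPM. Ccl2 was at 301 CPM in ibudilast and 458 CPM in PBS members (0.658), Ccl7 at 283 and 441 CPM (0.643), and Ccl12 at 703 and 985 CPM (0.714). These 3 genes encode ligands of CCR2 and lie in a chemokine cluster on chromosome 11 with Ccl8, whose ratio was above 1. In all, 3 of 15 chemokine genes were higher and 3 lower (median −0.22).

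Most listed interferon-gamma target genes were at nearly the same level in members of both libraries. The rule chose members of both by the same minimum of Cxcl9, itself such a target, and GTPase genes followed Cxcl9 within members. This likeness is therefore not independent of the rule and does not compare the interferon response of all macrophages. Of 16 GTPase genes none was higher and 1 lower, with a median log2 ratio of −0.04. Gbp2b was at 44.2 CPM in ibudilast and 81.8 CPM in PBS members (0.541), while Gbp2 was at 203 and 186 CPM (1.09). Of the interferon-gamma signalling genes, 0 of 18 passed 1.5-fold in either direction. Of the MHC class I list 0 of 18 passed it. Cd74, the MHC class II chaperone and a receptor of MIF, was at 16602 CPM in ibudilast and 20276 CPM in PBS members (0.819). Type I interferon-stimulated genes had 0 of 23 past 1.5-fold and a median of 0.07, with Isg15 at 764 and 563 CPM (1.36). In Cxcl9-zero cells 6 of 23 were higher in the ibudilast library, and in Arg1 or Mmp12 macrophages 9 of 23, where 6.77% of 8011 genes were higher.

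Most genes of the drug's known targets and of MIF receptors did not pass 1.5-fold. Of 9 compared genes of phosphodiesterases, MIF and MIF receptors 1 was higher, Cxcr4, at 83.3 CPM in ibudilast and 52.7 CPM in PBS members (ratio 1.58, 1.44 to 1.74). Mif was at 505 and 553 CPM (0.913), and Pde4b at 21.3 and 16.5 CPM (1.29, 1.07 to 1.54). Phosphodiesterase inhibition raises cAMP, which acts through the factor CREB. Of 14 CREB target genes 4 were higher and none lower (median 0.13), beside 4.46% of all genes higher and 2.28% lower. The 4 were Nr4a1 (1.77), Nr4a2 (1.62), Nr4a3 (1.94) and Vps37b (1.68), while Fos was at 0.991 and Crem at 1.10. Nr4a1, an early orphan receptor gene, was at 41.5 CPM in ibudilast and 23.4 CPM in PBS members. In Cxcl9-zero cells its ratio was 0.871, and 0 of 11 CREB target genes passed 1.5-fold there. In Arg1 or Mmp12 macrophages 3 of 14 CREB target genes were higher and none lower (median 0.11), beside 6.77% of 8011 genes higher. In members, genes of dissociation stress had 0 of 12 past 1.5-fold and a median of −0.04.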

How the data were processed

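CD45+ cells of GL261 tumours were profiled as 2 droplet-based 3' libraries, 1 per treatment, so ratios and shares are given without a test. The values used are whole UMI counts per gene and barcode as deposited by the authors; per the file headers Cell Ranger 6.1.1 made them, and per the submitters' processing notes the build was mm10. No source used here says how mice were pooled.

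The ibudilast matrix held 8483 barcodes with 82196922 UMIs and the PBS matrix 8968 barcodes with 119113794 UMIs. Kept barcodes had medians of 8267 UMIs in the ibudilast library and 12234 UMIs in the PBS library. Both matrices listed 31253 genes, and Cxcl11 and Mx1 were not among them. Counts were summed over the cells of a group and divided by their total (UMIs per 1000000, CPM). Ratios have exact conditional binomial intervals, shares exact Clopper-Pearson intervals and levels exact Poisson intervals, all at 95% and for counting error only. Genes with at least 50 UMIs over both groups were compared, and called above 1.5-fold or below its inverse. Gates for other populations used marker UMIs, and for lymphocytes, dendritic cells and monocytes a C1q share under 0.1% of UMIs.

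Named genes were the listed genes, the 5 markers, and up to 12 highest and 12 lowest genes per comparison. These had a UMI in at least 10% of cells of the higher group and were ordered by the bound of the ratio's interval closest to 1, which had to lie under 0.8 or above its inverse (in both libraries against Cxcl9-zero cells, where 9 lower genes passed). Genes of the rule, mitochondrial, ribosomal protein, haemoglobin, antigen receptor, Xist and Y-linked genes and unnamed models were left out of the ranking. Members and lists were chosen with earlier results of these data known. Doublets were kept; leaving out the 6% of barcodes with the highest Scrublet scores was an alternative, and it removed 23 ibudilast and 85 PBS members. Further alternatives were other Cxcl9, Arg1 and cell limits, other scaling and weighting, no low-count filter and leaving out mixed barcodes. Promoter letters came from RefSeq on GRCm38.p6. Python 3.11.15 with numpy 2.4.6, scipy 1.17.1, pandas 2.3.3, scanpy 1.11.5 and matplotlib 3.10.9 was used, and the ratio step was tested on simulated data. Some genes are not reported here.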

Additional observations from a re-analysis of the deposited data

Results flagged for a closer look

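Given here are 3 genes whose ratio of Cxcl9 macrophages to Cxcl9-zero macrophages lay on opposite sides of 1 in the libraries. They are not the only such genes, and Mgl2 is another. Of 8838 genes compared in both libraries, 30 had opposite calls. These differences were not tested. Ccr7, the homing receptor of migratory dendritic cells and T cells, had a ratio of 0.271 in the ibudilast library and 3.85 in the PBS library. S100a8, a calcium-binding protein of neutrophils and monocytes, had a ratio of 12.8 in the ibudilast library and 0.589 in the PBS library. Its partner S100a9 had a ratio of 17.9 in the ibudilast library and 0.512 in the PBS library. These rest on few cells: Ccr7 UMIs were found in 2.95% of ibudilast and 3.51% of PBS members, and S100a8 UMIs in 0.932% and 1.47%.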

How the results depend on the processing

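No paired analysis was possible because each group is 1 library. The share of members among kept barcodes had ratios of 0.435 to 0.511 and that among C1q-gated macrophages 0.822 to 0.941 over all alternatives run. Counts of genes depended on the filter. With no low-count filter, 992 genes were higher and 1877 lower in ibudilast members than in Cxcl9-zero cells, and 854 and 1685 in PBS members, while 1982 were higher and 775 lower in ibudilast than in PBS members. With each cell weighted alike, 465 were higher and 868 lower in ibudilast members than in Cxcl9-zero cells, and 728 lower in PBS members. The same weights gave 485 higher and 662 lower between the highest and lowest Cxcl9 classes of the ibudilast library, and 346 higher in the PBS library. With Cxcl9-zero cells weighted to the members' depth, 487 genes were higher in ibudilast members, and the median log2 ratios of monocyte genes (0.0097, against −0.14) and of dissociation stress genes (0.027, against −0.23) turned sign in that library. The median of monocyte genes between ibudilast and PBS members was 1.01 in members with at least 10 Cxcl9 UMIs, a limit chosen after seeing the data. Without the low-count filter the larger counts come from genes with few UMIs; otherwise the cause was not tested. Depth limits genes under 50 UMIs, and a single library per group limits every comparison.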
